A study of Mus musculus with 21 samples.

Results

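The mRNA levels of 10 genes that protect and extend mouse telomeres were followed in embryonic fibroblasts that lost Rtel1, lost Terf1 or received a ligand of G-quadruplex DNA. The genes were taken by name and are the rows of the deposited gene table for the shelterin subunits Terf1, Terf2, Terf2ip, Tinf2, Acd, Pot1a and Pot1b, the CST subunit Ctc1, and the telomerase components Tert and Dkc1. All 10 were found among the 24454 genes of the table, and all 10 passed the filter on low counts that left 13719 genes to be tested.

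Shelterin is the protein complex that coats the TTAGGG repeats of telomeres and keeps them from being read as broken ends. TRF1 and TRF2, encoded by Terf1 and Terf2, bind the double-stranded repeats, RAP1 (Terf2ip) rides on TRF2, TIN2 (Tinf2) bridges them to TPP1 (Acd), and TPP1 carries POT1 to the single-stranded overhang. Mice have a pair of POT1 proteins, POT1a and POT1b, where humans have one. CTC1 is the large subunit of CST, which brings DNA polymerase alpha and primase to the end to fill in the complementary strand. TERT is the reverse transcriptase of telomerase, and dyskerin (Dkc1) binds the H/ACA part of the telomerase RNA as well as the small RNAs that guide pseudouridylation. RTEL1 is a helicase that opens t-loops and G-quadruplexes, structures in which guanine-rich DNA folds into stacked tetrads, and it reaches t-loops through TRF2.

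RNA was collected from 7 groups of 3 biological replicates, 96 h after adenoviral infection. Rtel1 F/F cells, which carry floxed Rtel1 alleles, were infected with a virus for GFP alone (+GFP) or for Cre (+Cre), or infected with the GFP virus and given TMPyP4, a porphyrin that stabilizes G-quadruplexes, at 10 μM for the last 48 h (+GFP +TMPyP4). Rtel1 F/F cells transduced with RTEL1 C1252A/C1255A, a form with both named cysteines replaced that is impaired in binding TRF2, were infected with either virus and are called RTEL1 CA cells. Terf1 F/F cells, labelled Trf1f/f, were infected with either virus. Every group was thus exposed to an adenovirus, each line keeps its floxed gene until Cre acts, and whether a line is 1 clone is not given in the sources used here.

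Libraries held between 32069888 and 51938593 counts, and 3 counts in a library were taken as the smallest number measurable above 0. Levels are given as CPM, counts scaled by a library size that TMM adjusted, and errors of levels are SDs over 3 libraries. Changes are log2 fold changes with standard errors and adjusted p-values from edgeR's two-sided quasi-likelihood test over all 13719 genes, with genes called where that p was 0.01 or less. Whether the libraries of groups overlap is given as a description of 3 against 3 libraries, with no test and no share over all genes. The labels call the libraries biological replicates without saying whether each is a separate culture or embryo, so p-values measure the spread between these samples. Rtel1 itself was at 66.2, 59.1 and 60.2 CPM in Rtel1 F/F +GFP cells and at 29.9, 31.9 and 26.8 CPM in +Cre cells, so it fell by 1.07 on the log2 scale (SE 0.0787, adjusted p = 5.4e-09). In bulk RNA, fewer cells with a transcript and less of it per cell cannot be told apart. The counts are per gene and do not show which exons the remaining reads cover. Per the paper's methods, loss of RTEL1 after Cre was checked by PCR, western blot or both. In RTEL1 CA cells, where the counts do not separate the vector's transcript from the endogenous one, Rtel1 was at 332 ± 4.80 CPM with GFP and 265 ± 16.3 CPM with Cre. Of 10 fibroblast markers, 8 had a mean of at least 1 CPM in every group of the Rtel1 F/F line and all 10 had one in both Terf1 F/F groups. Thy1 and Lum, both markers of fibroblasts, were the exceptions, at no more than 0.49 and 0.111 CPM in any library of the Rtel1 F/F line. The summed markers of leukocytes, endothelium, epithelium, muscle and pluripotent cells did not exceed 6.39 CPM for any list in any library, and Cd3e, Myod1 and Zfp42 were at 0 in every library.

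The Rtel1 F/F +GFP libraries, the control of several comparisons, stood apart from the other 12 libraries of that line. Their summed fibroblast markers were between 13076 and 14035 CPM, and those of the other 12 libraries between 4820 and 9587 CPM. Most of this sum is collagen. Col1a1, Col1a2, Col3a1, Pdgfra and Pdgfrb were each higher in the controls, without overlap. Vim and S100a4 had lower medians in the controls than in each other group of the line. S100a4 was at 227 to 297 CPM in the controls and at 294 to 882 CPM in the others. Acd was at 49.97 to 58.7 CPM in the 3 control libraries and at 30.2 to 46.2 CPM in the 12 others, while Dkc1 was at 92.2 to 136 CPM in the controls and at 145 to 240.3 CPM in the others. Neither gene's ranges overlapped. The called changes of the 10 members after Rtel1 loss and TMPyP4 treatment are therefore followed by their values against RTEL1 CA +GFP cells, a comparison chosen after seeing the data in which the cells also differ by the transgene. The part that the difference in fibroblast markers has in the results was not tested.

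To compare the genes with each other, the deposited TPM values were used, which are scaled for transcript length. Dkc1 mRNA was the most abundant of the 10 in 6 groups, from 56.1 ± 5.36 TPM in Terf1 F/F +Cre cells to 144 ± 17.0 TPM in Rtel1 F/F +Cre cells. In Rtel1 F/F +GFP cells it stood at 81.6 ± 17.7 TPM, behind Acd at 86.0 ± 6.56 TPM, and the libraries of both genes overlapped. Acd was the most abundant shelterin mRNA in all 7 groups, between 41.6 and 90.9 TPM over single libraries, and Tinf2 followed it among shelterin genes at 27.3 to 40.1 TPM.

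**Figure D1:**
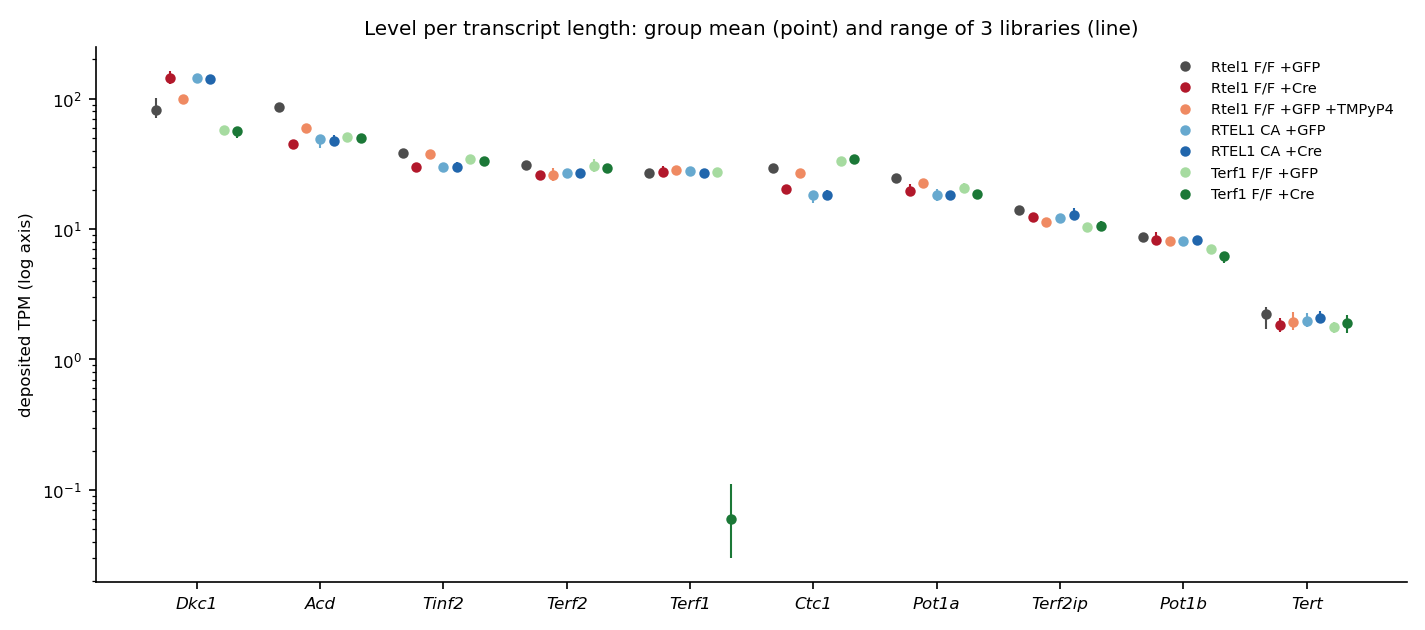
Deposited TPM of each gene on a log axis. Points are group means and lines the range of the 3 libraries. Tert stays near 2 TPM in every group, and Terf1 leaves the range of the other shelterin genes in Terf1 F/F +Cre cells, at 0.06 TPM.

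Terf2, at 23.5 to 34.2 TPM, and Terf1 outside the cells that lost it, with group means of 26.7 to 28.3 TPM, lay close together, and which of them was higher changed between groups. Pot1a was at 16.4 to 26.0 TPM and Pot1b at 5.53 to 9.5 TPM. The ratio of Pot1a to Pot1b was between 2.10 and 3.42 in the 21 libraries, so Pot1a was in each of them the more abundant of the paralogs. Terf2ip was at 9.87 to 14.6 TPM. Tert was at 1.59 to 2.54 TPM, below the other members in every group except where Terf1 had been deleted, and the ratio of Dkc1 to Tert was from 29.6 ± 1.92 in Terf1 F/F +Cre cells to 78.6 ± 10.8 in Rtel1 F/F +Cre cells. The order of the genes by the median of 3 libraries differed from that by the mean in both RTEL1 CA groups only, where Ctc1 and Pot1a, and after Cre also Terf1 and Terf2, changed places. These levels are descriptions, with no test.

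**Figure D2:**
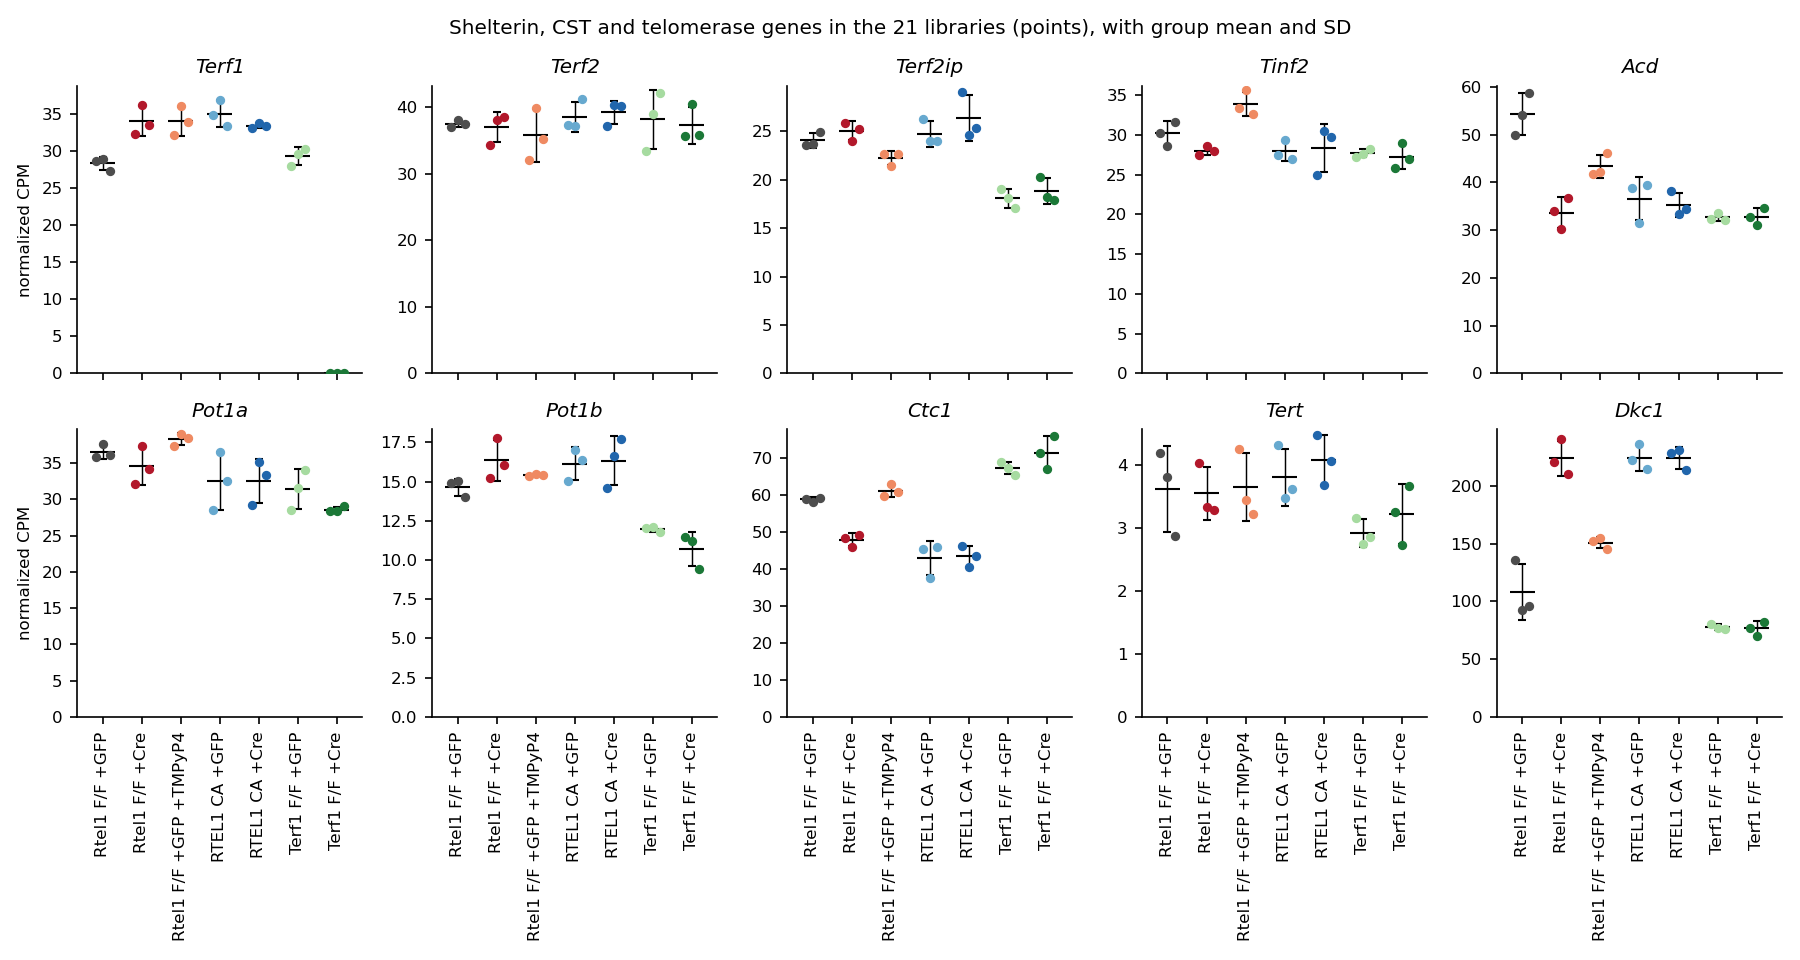
Normalized CPM of the 10 genes in each library, with the axis of each panel starting at 0. Points are libraries, bars group means and whiskers SDs. Dkc1 and Acd in Rtel1 F/F +GFP cells lie away from the other groups of that line, and for Terf2 and Tert each group overlaps the next one in the order of means.

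After Rtel1 deletion Dkc1 was higher and Acd and Ctc1 lower than in the Rtel1 F/F +GFP libraries. With +Cre against +GFP in Rtel1 F/F cells, 3 of 10 members were called, where 43.0% of all tested genes were called, 1 of them higher (22.0% of all genes) and 2 lower (21% of all genes). Dkc1 was at 136, 92.2 and 95.7 CPM in the +GFP libraries and at 221, 240.3 and 210.4 CPM in the +Cre libraries, so every +Cre library lay above every control. The difference was 1.05 on the log2 scale (SE 0.11, adjusted p = 3.32e-07).

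Acd, which encodes the subunit that recruits telomerase through its TEL patch, was at 49.97, 54.1 and 58.7 CPM in +GFP cells and at 33.9, 30.2 and 36.7 CPM in +Cre cells. The groups did not overlap, and Acd fell by 0.69 on the log2 scale (SE 0.0927, adjusted p = 6.05e-06). Ctc1 was at 59.1, 58.1 and 59.4 CPM with GFP and at 48.6, 45.9 and 49.3 CPM with Cre. It fell by 0.30 on the log2 scale (SE 0.071, adjusted p = 0.00172), again without overlap. After a correction of each library for GC content the Dkc1 difference was 0.96 (adjusted p = 9.73e-07) and the Acd difference -0.33 (adjusted p = 0.00234), while that of Ctc1 was -0.06 (adjusted p = 0.338) and no longer called. The correction also moved the median of all genes by 0.09 in this comparison.

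The calls depended on the control used. Against RTEL1 CA +GFP cells, Rtel1 F/F +Cre cells differed by -0.00 in Dkc1 (log2, SE 0.109, adjusted p = 0.997), by -0.12 in Acd (adjusted p = 0.48) and by 0.16 in Ctc1 (adjusted p = 0.184), and edgeR called no member, where it called 7.76% of all genes.

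The remaining 7 members were not called after Rtel1 loss, with log2 differences between -0.11 and 0.26. Terf1 came closest. It was at 28.7, 28.9 and 27.3 CPM with GFP and at 32.3, 36.3 and 33.5 CPM with Cre, a difference of 0.26 (SE 0.0857, adjusted p = 0.0142) without overlap between the groups. DESeq2 called it (adjusted p = 0.00109), and after GC correction it was 0.09 (adjusted p = 0.265). GC correction brought a call of Pot1a, lower by -0.22 (adjusted p = 0.00269), where the uncorrected difference was -0.08 (adjusted p = 0.453). Terf2, the partner of RTEL1 at t-loops, differed by -0.02 (SE 0.09, adjusted p = 0.861), and Tert by -0.03 (SE 0.156, adjusted p = 0.9). Tert was measured from 115 to 228 counts a library, and its standard error was the widest of the 10.

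**Figure D3:**
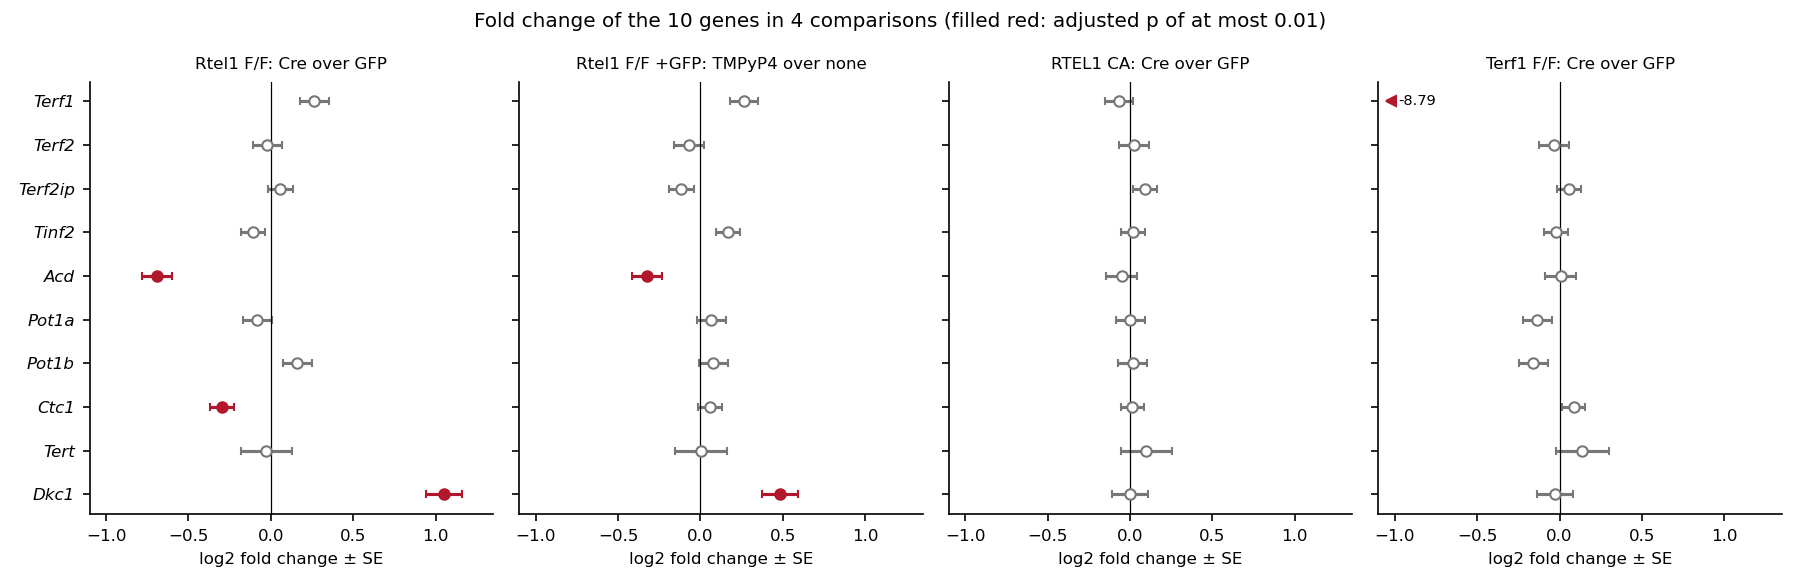
Log2 fold change of each gene with its standard error in the 4 comparisons within a line. Filled red points have an adjusted p of at most 0.01, and the arrow marks Terf1 after its own deletion, at -8.79, which is off the axis. Only Dkc1, Acd, Ctc1 and Terf1 have a filled point in any panel.

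In cells that kept Rtel1, Dkc1 was higher and Acd lower with TMPyP4 than in the Rtel1 F/F +GFP libraries. With +GFP +TMPyP4 against +GFP, 2 of 10 members were called (30.0% of all genes), Dkc1 higher (16.6% of all genes) and Acd lower (13.4% of all genes). Both comparisons with Rtel1 F/F +GFP cells use the same 3 control libraries, so likeness between them is not independent evidence. Dkc1 was at 152, 155 and 145 CPM in the treated libraries, above every control, a difference of 0.48 (log2, SE 0.109, adjusted p = 0.00173). Acd was at 41.7, 42.1 and 46.2 CPM, below every control, and fell by 0.32 (log2, SE 0.0922, adjusted p = 0.00857). Terf1 was at 32.1, 36.0 and 33.9 CPM, also above every control. Its difference of 0.26 (SE 0.0858, adjusted p = 0.0192) was not called by edgeR but was by DESeq2 (0.26, adjusted p = 0.00435), and it was -0.04 against RTEL1 CA +GFP cells. DESeq2 called 3 of 10 members with TMPyP4 (30.3% of all genes).

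Both calls depended on single libraries or on the processing. Without the second or the third +GFP library the Dkc1 difference was 0.37 (adjusted p = 0.0282) or 0.38 (adjusted p = 0.0253), and Acd stayed called in 1 of 6 fits that left out a library, with adjusted p-values up to 0.0373 in the rest. GC correction left Dkc1 at 0.39 (adjusted p = 0.00885) and Acd at -0.04 (adjusted p = 0.701), and it moved the median of all genes by 0.07. Against RTEL1 CA +GFP cells, where 17.0% of all genes were called, Dkc1 was lower, by -0.57 (log2, adjusted p = 0.000697), and Acd differed by 0.24 (adjusted p = 0.0593). Ctc1 was at 60.0, 63.1 and 60.8 CPM with TMPyP4 and differed by 0.06 from its controls (SE 0.0708, adjusted p = 0.535). It was called, and higher, after GC correction (0.24, adjusted p = 0.00122) and against RTEL1 CA +GFP cells (0.51, adjusted p = 3.53e-05), as was Tinf2 in the latter (0.28, adjusted p = 0.00892). Tinf2 was at 33.4, 35.6 and 32.7 CPM with TMPyP4 and at 30.3, 28.6 and 31.7 CPM without, a difference of 0.17 (SE 0.0737, adjusted p = 0.0747).

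**Figure D4:**
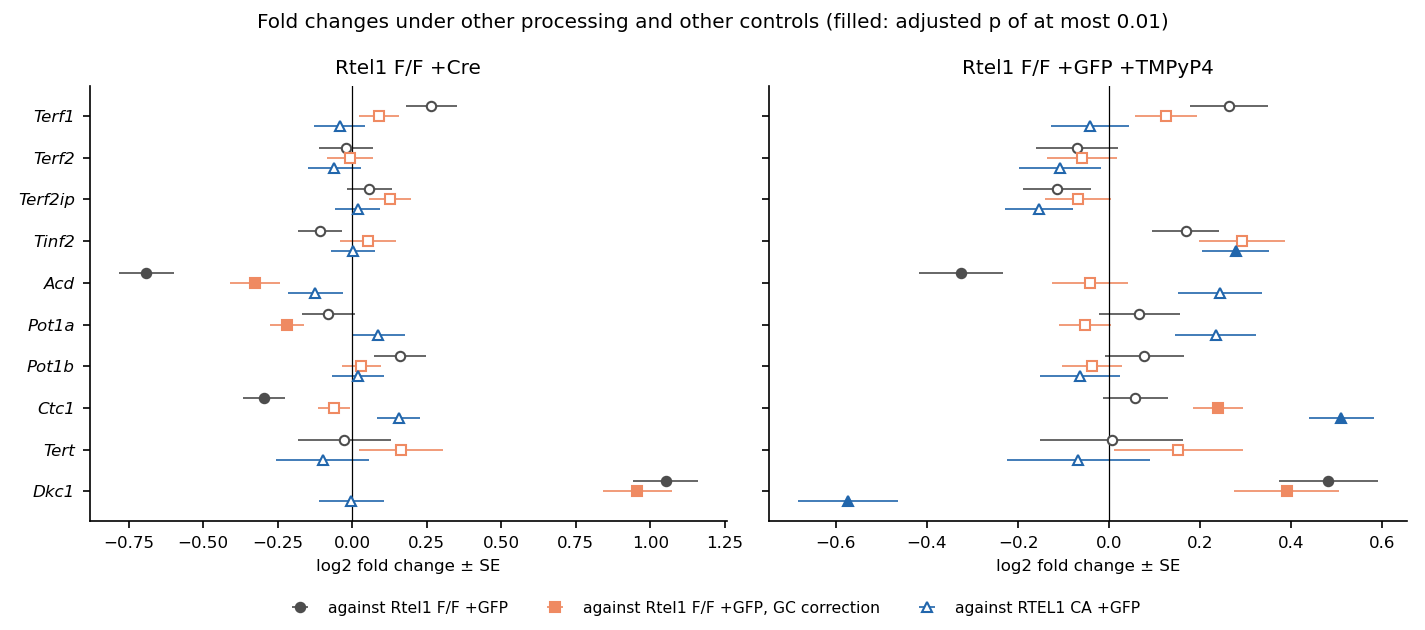
Log2 fold change with its standard error of each gene in Rtel1 F/F +Cre cells (left) and +GFP +TMPyP4 cells (right), against Rtel1 F/F +GFP cells with and without a GC correction, and against RTEL1 CA +GFP cells. Filled symbols have an adjusted p of at most 0.01. With RTEL1 CA +GFP cells as control no symbol is filled on the left, and Dkc1 lies at -0.57 on the right.

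Set directly against each other, which needs none of the untreated controls, Rtel1 loss and TMPyP4 treatment differed in 3 of 10 members (15.2% of all genes). Dkc1 was higher after Rtel1 loss than after treatment, by 0.57 (log2, SE 0.109, adjusted p = 0.000796). Acd was lower by -0.37 (SE 0.0927, adjusted p = 0.00695) and Ctc1 by -0.35 (SE 0.0711, adjusted p = 0.00119), and none of the 3 genes overlapped between the groups. Tinf2, which bridges TRF1 and TRF2 to TPP1, differed by -0.28 (SE 0.0739, adjusted p = 0.0104), just short of a call. With the replicate number as a block, which pairs these libraries, Tinf2 was called (adjusted p = 0.0075). GC correction ended the call of Acd (-0.28, adjusted p = 0.0135), and a fit of these 6 libraries alone ended those of Acd (adjusted p = 0.0327) and Ctc1 (adjusted p = 0.0102). The Acd call was also lost without any of 5 of the 6 libraries, with adjusted p-values up to 0.0389.

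The starts of the 3 genes called after Rtel1 loss are shown because TMPyP4 and RTEL1 both act on G-quadruplex DNA. Dkc1 spans positions 75095854 to 75109776 of chromosome X, Acd 105698155 to 105701228 of chromosome 8 and Ctc1 69015188 to 69036473 of chromosome 11. The sequences are the 250 bases before each start, from RefSeq (GRCm38.p6), written 5′ to 3′ on the strand of the gene, in lower case with motif matches in capitals. The motifs searched on both strands were CACGTG (an E-box), GGGCGG (a GC box, also written CCGCCC on the other strand) and 4 runs of at least GGG with 1 to 7 bases between runs. A looser form of the last, with up to 12 bases between runs, was added after the sequences were read. Overlapping matches are joined. The window of Dkc1 is chrX:75095604-75095853 (+), that of Acd chr8:105701229-105701478 (-) and that of Ctc1 chr11:69015661-69015910 (+), which lies inside the span of the RefSeq gene.
Dkc1: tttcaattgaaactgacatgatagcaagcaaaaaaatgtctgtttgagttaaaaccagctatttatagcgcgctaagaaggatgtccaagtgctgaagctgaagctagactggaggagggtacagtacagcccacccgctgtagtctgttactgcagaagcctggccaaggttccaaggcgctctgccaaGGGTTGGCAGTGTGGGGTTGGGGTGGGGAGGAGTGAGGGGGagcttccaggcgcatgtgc
Acd: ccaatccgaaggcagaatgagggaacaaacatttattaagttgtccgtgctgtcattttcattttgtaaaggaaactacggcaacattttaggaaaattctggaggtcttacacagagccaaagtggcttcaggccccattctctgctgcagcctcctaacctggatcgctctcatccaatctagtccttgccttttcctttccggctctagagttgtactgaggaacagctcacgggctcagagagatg
Ctc1: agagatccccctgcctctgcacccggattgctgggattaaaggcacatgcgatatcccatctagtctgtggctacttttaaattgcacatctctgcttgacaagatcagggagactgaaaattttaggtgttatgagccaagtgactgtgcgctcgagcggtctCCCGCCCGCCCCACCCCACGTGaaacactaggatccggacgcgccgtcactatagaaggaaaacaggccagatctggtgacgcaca
The Dkc1 window held 1 match, to the looser run pattern on the gene's own strand, starting 60 bases before the start. The Ctc1 window held the stricter run pattern on the opposite strand, starting 86 bases before the start, with 2 overlapping GC boxes inside it and an E-box that shares its last base. The Acd window held none of these letters. Of 9 members with a window in the table, 1 held an E-box, 4 a GC box, 2 the stricter and 3 the looser run pattern. A member counted if any of its windows matched, and Terf2 and Pot1b have 2 windows each. Among all 32851 windows, counted singly and not by gene, the shares were 6.02%, 32.7%, 16.7% and 25.9%. Terf1 has no window in the table.

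In RTEL1 CA cells none of the 10 genes was called after Cre. EdgeR called none (1.09% of all genes), none had an unadjusted p under 0.05, and DESeq2 called none. Dkc1 was at 222, 237 and 214 CPM before Cre and at 229, 231 and 213 CPM after it, a difference of -0.00 (log2, SE 0.109, adjusted p = 1). Acd was at 38.9, 31.4 and 39.5 CPM before and at 38.2, 33.4 and 34.5 CPM after, a difference of -0.05 (SE 0.0925, adjusted p = 0.939). For each of the 10 genes the libraries of both groups overlapped.

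RTEL1 CA cells differed from Rtel1 F/F cells before Cre was given. Against Rtel1 F/F +GFP cells, RTEL1 CA +GFP cells had 4 of 10 members called (44.7% of all genes), Dkc1 and Terf1 higher (22.6% of all genes) and Acd and Ctc1 lower (22.1% of all genes). The differences were 1.05 for Dkc1 (log2, SE 0.11, adjusted p = 3.12e-07), 0.31 for Terf1 (SE 0.0857, adjusted p = 0.00547), -0.57 for Acd (SE 0.0924, adjusted p = 4.75e-05) and -0.45 for Ctc1 (SE 0.0711, adjusted p = 3.29e-05). GC correction ended the calls of Terf1 (0.11, adjusted p = 0.151) and Acd (-0.15, adjusted p = 0.134). Terf1 also lost its call without RTEL1 CA +GFP library 2 (0.28, adjusted p = 0.0232) and without any of the Rtel1 F/F +GFP libraries. With Cre in both, RTEL1 CA cells and Rtel1 F/F cells differed in none of the 10 (4.30% of all genes), by edgeR or DESeq2 or at an unadjusted p under 0.05.

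Deleting Terf1 removed its own mRNA and was followed by no other call. Terf1 was at 27.9, 29.6 and 30.3 CPM in Terf1 F/F +GFP cells and at 0.11, 0.0458 and 0.0268 CPM in +Cre cells, which are 5, 2 and 1 counts. Pooled, 8 counts were left against 3712 before, which is 0.216% of the level in +GFP cells with an exact 95% interval of 0.0933% to 0.426% that covers counting error only. It was the only member called, 1 of 10 (3.42% of all genes), and its fitted log2 difference of -8.79 depends on the prior count at so few counts.

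The other 9 members differed by -0.16 to 0.14 after Terf1 loss, with adjusted p-values of at least 0.39. Tinf2, whose protein TRF1 binds directly, was at 27.2, 27.6 and 28.3 CPM before and 25.9, 28.9 and 27.0 CPM after, a difference of -0.02 (log2, SE 0.0739, adjusted p = 0.931). Terf2, the paralog of Terf1, differed by -0.03 (SE 0.09, adjusted p = 0.905). Pot1b was the only other member without overlap, at 12.04, 12.1 and 11.8 CPM before and 11.5, 11.2 and 9.45 CPM after, a difference of -0.16 (SE 0.0882, adjusted p = 0.39).

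Before any deletion the Terf1 F/F line already differed from the Rtel1 F/F line. With GFP in both, 4 of 10 members were called (54.9% of all genes), each of them lower in Terf1 F/F cells. Acd was lower by -0.73 (log2, SE 0.0927, adjusted p = 1.65e-06), Dkc1 by -0.47 (SE 0.109, adjusted p = 0.000976), Terf2ip by -0.41 (SE 0.0747, adjusted p = 9.7e-05) and Pot1b by -0.29 (SE 0.0875, adjusted p = 0.00744). Terf2ip was at 19.0, 18.2 and 17.1 CPM in Terf1 F/F +GFP cells and at 23.6, 23.7 and 24.9 CPM in Rtel1 F/F +GFP cells, and these did not overlap. Pot1b lost its call in each of 6 fits without a library, with adjusted p-values up to 0.0378, and with DESeq2 (adjusted p = 0.0149), and Dkc1 in the fit of these 6 libraries alone (adjusted p = 0.0153). Ctc1 was at 69.1, 67.4 and 65.6 CPM in Terf1 F/F +GFP cells, above every library of the Rtel1 F/F line, but was not called by edgeR (0.19, SE 0.0708, adjusted p = 0.0226). DESeq2 called it (0.21, adjusted p = 0.00446). GC correction, which lowered the median of all genes in this comparison by -0.23, raised the count to 8 of 10, where 65.4% of all genes were then called.

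The effect of Cre was compared between lines by an interaction term. Rtel1 F/F and RTEL1 CA cells differed in their response to Cre for 2 of 10 members (25.1% of all genes), Dkc1 by 1.05 (log2, SE 0.154, adjusted p = 4.84e-05) and Acd by -0.64 (SE 0.131, adjusted p = 0.000914). Ctc1 differed by -0.31 (SE 0.1, adjusted p = 0.0207) and Terf1 by 0.33 (SE 0.121, adjusted p = 0.0377), and edgeR called neither. DESeq2 called Terf1 (0.36, adjusted p = 0.0048). Rtel1 F/F and Terf1 F/F cells differed for 4 of 10 members (30.2% of all genes). Apart from Terf1 itself these were Dkc1 by 1.08 (SE 0.154, adjusted p = 2.93e-05), Acd by -0.70 (SE 0.131, adjusted p = 0.000357) and Ctc1 by -0.38 (SE 0.1, adjusted p = 0.00502). GC correction ended the Acd calls, at -0.25 (adjusted p = 0.1) and -0.23 (adjusted p = 0.119), and the Ctc1 call, at -0.09 (adjusted p = 0.349). Each of these differences includes the Rtel1 F/F +GFP libraries.

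Over all 7 groups, Dkc1 fell into 4 levels by whether libraries overlapped. Both RTEL1 CA groups and Rtel1 F/F +Cre cells were highest and overlapped each other, from 210.4 to 240.3 CPM. TMPyP4-treated cells came next, then Rtel1 F/F +GFP cells, and both Terf1 F/F groups were lowest, from 69.8 to 82.4 CPM. For Acd, Rtel1 F/F +GFP and TMPyP4-treated cells each stood apart at the top, and the other 5 groups overlapped their neighbours in the order. Ctc1 ran from 71.5 ± 4.47 CPM in Terf1 F/F +Cre cells to 43.0 ± 4.59 CPM in RTEL1 CA +GFP cells. For Terf2 and Tert each group overlapped the next throughout the order of all 7.

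The other proteins of the telomerase particle were taken from a list of 12 genes, of which 11 were tested. Terc, the telomerase RNA, had at most 4 counts in a library made from polyadenylated RNA and was not measurable. Against Rtel1 F/F +GFP cells, 6 of 11 rose after Rtel1 loss (22.0% of all genes) and none fell, and the list's median log2 difference was 0.62, where that of all genes was -0.03. The 6 were Nhp2 (1.06), Pinx1 (0.97), Naf1 (0.96), Nop10 (0.82), Gar1 (0.72) and Ruvbl1 (0.62). Dyskerin, NHP2, NOP10 and GAR1 form the core of every H/ACA particle, NAF1 and the ATPase RUVBL1 act in its assembly, and PINX1 binds telomerase and inhibits it. After GC correction 8 of the 11 were called after Rtel1 loss (48.9% of all genes), all higher, with Ruvbl2 and Wrap53 added. The list's median was then 0.76, where that of all genes was 0.06. With TMPyP4 the correction also gave 8 of 11, all higher (36.9% of all genes), with a list median of 0.43. With RTEL1 CA +GFP cells as the control and no such correction, edgeR called 0 of the 11 (7.76% of all genes) and their median was -0.03. Nop10 then differed by -0.04 (adjusted p = 0.878), Nhp2 by 0.08 (adjusted p = 0.817) and Naf1, the furthest of the 6, by -0.24 (adjusted p = 0.503).

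Nop10 was at 38.9, 33.0 and 38.2 CPM with GFP and at 66.3, 67.6 and 60.3 CPM with Cre. Nhp2 was at 51.1, 37.9 and 42.8 CPM with GFP and at 104, 73.3 and 97.6 CPM with Cre. In both, every Cre library lay above every control. With TMPyP4 these 6 genes were each called higher (16.6% of all genes), by 0.36 (Ruvbl1) to 0.89 (Pinx1), and in RTEL1 CA +GFP cells (22.6% of all genes) by 0.57 (Ruvbl1) to 1.20 (Naf1), each against the 3 control libraries that the Rtel1 comparison also used. In RTEL1 CA +GFP cells Tep1, a protein of the vault particle and of telomerase, was lower by -0.52 (adjusted p = 0.000443). With TMPyP4 and RTEL1 CA +GFP cells as the control, none of the 6 was higher. There 3 of 11 were called (17.0% of all genes), Gar1 (-0.38, adjusted p = 0.0041) and Nop10 (-0.39, adjusted p = 0.00441) lower and Tep1 (0.86, adjusted p = 9.62e-06) higher. DESeq2 called Tep1 higher also against Rtel1 F/F +GFP cells (0.33, adjusted p = 0.00411).

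**Figure D5:**
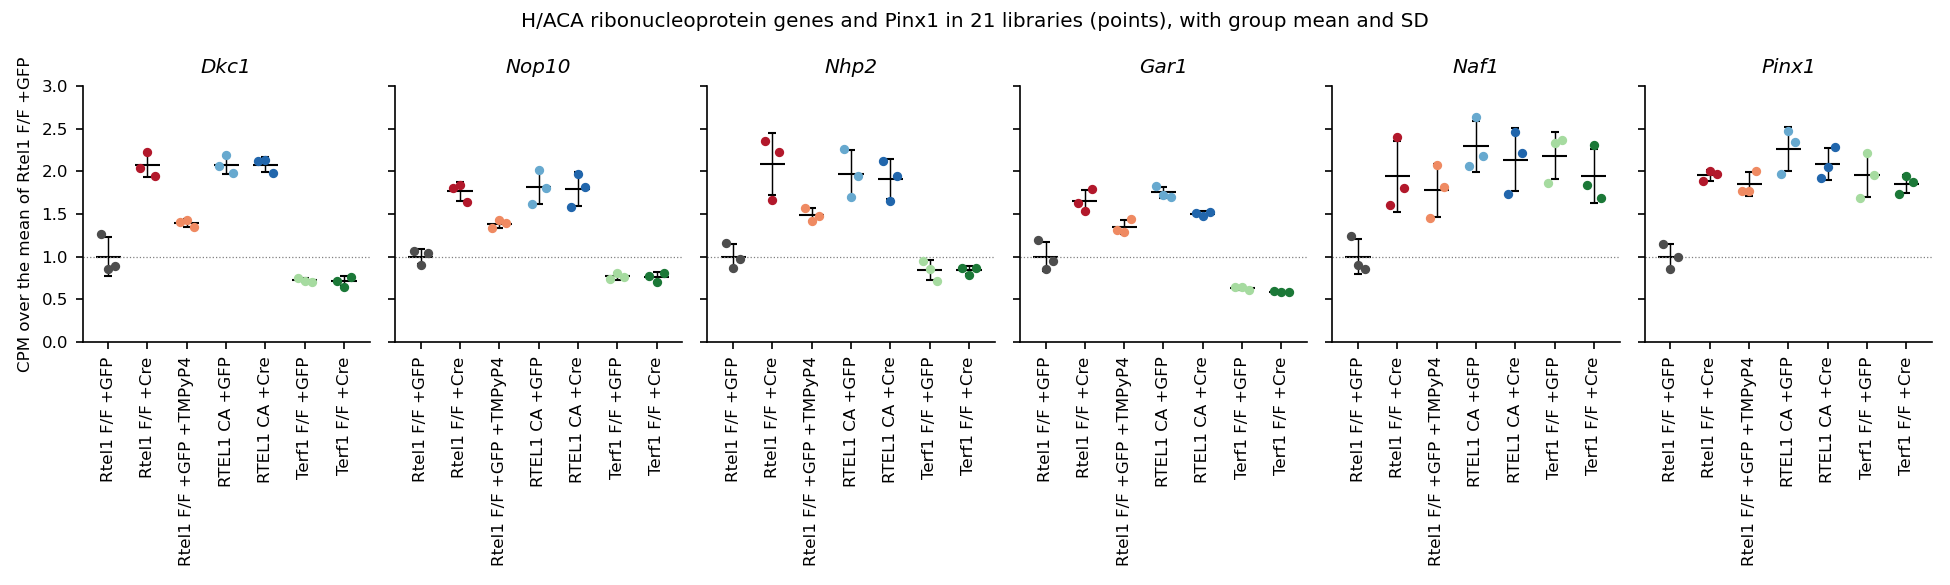
CPM of H/ACA particle genes and Pinx1 in each library, divided by the mean of Rtel1 F/F +GFP cells (dotted line at 1). Points are libraries, bars group means and whiskers SDs. For each of the 6 genes all Rtel1 F/F +Cre, TMPyP4-treated and RTEL1 CA libraries lie above 1, and Naf1 and Pinx1 differ from the other 4 in the Terf1 F/F groups, where they too lie above 1.

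For the effect of Cre, edgeR called none of the 11 in RTEL1 CA cells (1.09% of all genes), where 1 had an unadjusted p under 0.05. In Terf1 F/F cells it called none (3.42% of all genes), and none had an unadjusted p under 0.05. DESeq2 called none in either (2.42% and 4.59% of all genes). By edgeR, Rtel1 loss exceeded TMPyP4 treatment in Nop10 and Ruvbl1 and was below it in Tep1, by -0.59 (SE 0.106, adjusted p = 0.000453), which is 3 of 11 (15.2% of all genes), and DESeq2 also called Gar1 and Nhp2. In the response to Cre, the 6 genes that rose after Rtel1 loss differed from RTEL1 CA cells by 0.63 (Ruvbl1) to 1.10 (Nhp2), where 12.8% of all genes were called higher. From Terf1 F/F cells they differed by 0.69 (Ruvbl1) to 1.12 (Naf1), where 15.8% of all genes were. The 6 were chosen by their rise after Rtel1 loss, and both of these differences contain that rise and its control libraries. High values were therefore set by the choice and are not separate evidence. Between the lines with GFP, 7 of 11 were called in Terf1 F/F cells (54.9% of all genes), with Naf1 (1.13), Pinx1 (0.97), Tep1 (0.57) and the RNA deadenylase Parn (0.57) higher and Gar1 (-0.66), Ruvbl1 and Nop10 lower.

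Which partners of CTC1 were called after Rtel1 loss depended on the processing. Of 6 genes, Stn1 (listed as Obfc1), Ten1 and the subunits of polymerase alpha and primase Pola1, Pola2, Prim1 and Prim2, edgeR called Pola2 alone after Rtel1 loss (43.0% of all genes), lower by -0.21 (adjusted p = 0.00668), while the median of the 6 was 0.14. DESeq2 also called Prim1, which was higher (0.42, adjusted p = 0.00911). After GC correction 4 of 6 were called (48.9% of all genes), Obfc1, Pola1, Prim1 and Ten1, with 3 higher and 1 lower, and Pola2 was not. With only the groups compared Prim1 alone was called (34.4% of all genes). Against RTEL1 CA +GFP cells Pola2 differed by -0.06 (adjusted p = 0.627), and Obfc1 was called instead (0.31, adjusted p = 0.00388). By edgeR none was called with TMPyP4 (30.0% of all genes), where none had an unadjusted p under 0.05, and DESeq2 called none (30.3% of all genes). In Terf1 F/F +GFP cells 5 of 6 were lower than in Rtel1 F/F +GFP cells (24.5% of all genes), Pola2 by -0.95, Prim2 by -0.80, Pola1 by -0.60, Prim1 by -0.57 and Obfc1 by -0.40, each with an adjusted p of at most 0.000716. Ten1 was the exception.

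Among 11 proteins that act with shelterin, Rtel1 included, 4 were called by edgeR after Rtel1 loss (43.0% of all genes), with Rtel1, the poly-ADP-ribosyltransferase Tnks (-0.29, adjusted p = 0.00632) and Smg6 (-0.29, adjusted p = 0.000628) lower and Rif1 (0.28, adjusted p = 0.00878) higher. DESeq2 called 6 (41.0% of all genes), adding Ercc4 (0.29, adjusted p = 0.00787) and Slx4 (-0.31, adjusted p = 0.00438). After GC correction 3 were called (48.9% of all genes), Rtel1, Tnks and Ercc1. With only the groups compared the deleted gene Rtel1 alone was called (34.4% of all genes). Against RTEL1 CA +GFP cells, whose Rtel1 counts include the vector's transcript, only Rtel1 was called by edgeR. Tnks differed by -0.17 (adjusted p = 0.229), Smg6 by -0.14 (adjusted p = 0.155) and Rif1 by -0.08 (adjusted p = 0.674). For Cre in RTEL1 CA cells edgeR called none of the list (1.09% of all genes), while DESeq2 called Rtel1 and Smg6, both lower (2.42% of all genes). After Terf1 loss none was called by edgeR (3.42% of all genes) or DESeq2 (4.59% of all genes). With TMPyP4, Rif1 alone was called against Rtel1 F/F +GFP cells (0.32, adjusted p = 0.0052, with 30.0% of all genes called). Rif1 lost this call after GC correction, which called Rtel1 and Pif1 higher instead (23.0% of all genes). With only the groups compared none of the list was called (29.6% of all genes). Against RTEL1 CA +GFP cells Rif1 differed by -0.04 (adjusted p = 0.8), and Dclre1b was called lower (-0.27, adjusted p = 0.00766). Rtel1 was called lower there too, but that control carries the vector's transcript, so this call cannot be read as a change with TMPyP4. Dclre1b encodes the TRF2-bound nuclease Apollo. It was higher after Rtel1 loss than after TMPyP4 treatment (0.29, adjusted p = 0.00504), and in Terf1 F/F +GFP cells it was lower than in Rtel1 F/F +GFP cells by -1.31 (adjusted p = 1.74e-11). Ercc1 and Ercc4, the partners in a structure-specific endonuclease, were higher in the same cells by 1.20 and 0.97.

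Across the 21 libraries, the tested genes most like each member were found by Pearson's r of log2 CPM, as a description over libraries that share a line and controls. Dkc1 was most like Nkrf (r = 0.994) and Nsun2 (r = 0.992). Ctc1 was most like Tep1 (r = 0.965) and Kif3c (r = 0.963), and its r with Dkc1 was -0.90. Acd was most like Fam134a and Arhgef11 (both r = 0.961), Terf2ip like Zcchc17 (r = 0.971) and Psmd4 (r = 0.957), Pot1b like Mtf2 (r = 0.968) and Dek (r = 0.967), and Pot1a like AI597479 (r = 0.928) and Ttc33 (r = 0.925). Tinf2 was most like Smim10l1 (r = 0.924) and Mllt3 (r = 0.866), and Tert like Znrf3 (r = 0.909) and Prdm15 (r = 0.869). Over the 18 libraries that kept it, Terf1 was most like Ssrp1 (r = 0.960) and Cul3 (r = 0.954). Terf2 had the lowest best match, with Esco2 (r = 0.734) and Prpf18 (r = 0.727).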

How the data were processed

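RNA from 21 libraries was sequenced in 7 groups. Per the labels and the study's methods, the authors' tools were cutadapt 1.9.1 for trimming, STAR 2.5.2a for alignment to mm10 and RSEM 1.3.0 for strand-aware counting per gene. They deposited an expected count per gene, not normalized (all values were whole), and a TPM per gene, used only to compare levels between genes. Sources differ on read length and serum. No value column was left unmapped.

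Counts were fitted in R 4.3.3 with edgeR 4.0.16 (TMM, filterByExpr, 1 coefficient per group over 21 libraries, robust quasi-likelihood test, Benjamini-Hochberg adjustment). The fit was tested on simulated data before use. Members and lists were chosen with earlier results of these data known. All 10 members were named in every comparison, from the other telomere lists called genes, and for each member the 2 most alike genes among those averaging 1 CPM or more. The report also names, chosen after their values were seen, called genes of the lists with an absolute log2 fold change under 0.5. Log2 CPM used a prior count of 2.

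Tried as alternatives were DESeq2 1.42.0, edgeR with DESeq2's size factors, all genes kept, a minimum of 10 counts per library, an adjusted p of at most 0.05, the groups compared alone, the replicate number as a block, a GC correction per library (loess, span 0.3), each library left out, and, chosen after seeing the data, RTEL1 CA +GFP controls. Replicate numbers were taken to pair libraries where same-numbered deviations from group means correlated above 0.1 in all 3 pairs over 11840 genes. This held for RTEL1 CA cells with and without Cre (0.86, 0.84, 0.42) and for Rtel1 F/F +Cre against TMPyP4-treated cells (0.72, 0.76, 0.41).

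Some members overlap other genes, Acd with Carmil2 and Tinf2 with Gmpr2 on the opposite strand, and Dkc1 with a small nucleolar RNA gene on its own strand.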

Additional observations from a re-analysis of the deposited data

Results flagged for a closer look

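Differences between lines in the effect of Cre, tested by an interaction term in edgeR, passed the threshold for 4 members. Between Rtel1 F/F and RTEL1 CA cells the log2 difference was 1.05 for Dkc1 and -0.64 for Acd. Between Rtel1 F/F and Terf1 F/F cells it was 1.08 for Dkc1, -0.70 for Acd, -0.38 for Ctc1 and 9.06 for Terf1, which Cre deletes only in the latter line and whose value rests on 8 counts. The Ctc1 difference lost its call without Terf1 F/F +Cre library 3 (-0.33, adjusted p = 0.0128), Terf1 F/F +GFP library 2 (-0.37, adjusted p = 0.0101) or Terf1 F/F +GFP library 3 (-0.36, adjusted p = 0.015). All groups had 3 libraries, too few to test for single outlying values.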

How the results depend on the processing

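Of 1530 values of single members under alternatives, 1448 kept their direction and their side of the threshold, 43 lost a call (25 of them without a library), 27 gained one and 12 turned direction. A value that turned direction was counted only as turned, also where it lost its call, as Dkc1 did after Rtel1 loss with RTEL1 CA +GFP controls. The 27 include values that passed only because the threshold was loosened to an adjusted p of at most 0.05. An uncalled value smaller than its SE was given no direction. The cause of these changes was not tested.

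Members called after Rtel1 loss went from 3 to 0 with RTEL1 CA +GFP controls, where Terf1 was -0.042, Tinf2 0.0027, Ctc1 0.16 and Dkc1 -0.0038 (log2), and with TMPyP4 against those controls Terf1 was -0.043, Acd 0.24 and Dkc1 -0.57. The 0 stood beside 7.76% of all genes. With only the groups compared, 1 member was called with TMPyP4 (29.6% of all genes) and 1 between Rtel1 loss and TMPyP4 (7.46% of all genes). Leaving out a library gave 0 to 2 members with TMPyP4, where 2466 to 4110 of all genes were called. For Terf2ip between RTEL1 CA and Rtel1 F/F cells after Cre it gave -0.0021 (without RTEL1 CA +Cre library 1) to 0.11. At least 10 counts in every library removed Terf1 itself and left 0 members after its loss, where 353 of 11650 genes were called.

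GC correction gave 8 members between the lines (65.4% of all genes). It gave 1 for the difference in the effect of Cre between Rtel1 F/F and RTEL1 CA cells (32.7%) and 2 for that between Rtel1 F/F and Terf1 F/F cells (36.6%). Without the correction, the first difference had 4 at an adjusted p of at most 0.05, where 5229 of 13719 genes were called. GC correction turned Tinf2 to 0.053 after Rtel1 loss, to 0.079 in RTEL1 CA +GFP cells and to 0.071 in the first difference, and Pot1b to -0.0059 in RTEL1 CA +GFP cells. It moved the median of all genes by 0.13 and 0.14 in the differences in the effect of Cre, by 0.09 after Rtel1 loss and by 0.07 with TMPyP4. Between the lines it moved that median by -0.23, and the share of calls that were higher went from 55.3% to 35.2%. Over all genes, 150 calls for Cre in RTEL1 CA cells became 337 with DESeq2, 320 with GC correction, 52 to 149 without a library (fewest without RTEL1 CA +Cre library 3) and 0 by edgeR with only the groups compared, where 1256 had an unadjusted p under 0.05. The 469 after Terf1 loss became 843 with GC correction and 282 to 377 without a library (fewest without Terf1 F/F +Cre library 1 or +GFP library 2). With only the groups compared, 2088 calls between Rtel1 loss and TMPyP4 became 933, 590 between RTEL1 CA and Rtel1 F/F cells after Cre 117 (388 without Rtel1 F/F +Cre library 3) and 3450 for the first difference 2195. The 4114 with TMPyP4 became 2466 without Rtel1 F/F +GFP library 2 and 2710 without library 3. With RTEL1 CA +GFP controls 5902 calls after Rtel1 loss became 1064, and 4114 with TMPyP4 became 2333.

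The replicate number as a block brought calls of Terf1 after Rtel1 loss (0.26, adjusted p = 0.00668) and with TMPyP4 (adjusted p = 0.00888), and of Pot1a (adjusted p = 0.00617) and Ctc1 (adjusted p = 0.00867) between the lines, comparisons whose libraries share only a number. It also brought a call of Ctc1 for the difference between Rtel1 F/F and RTEL1 CA cells (adjusted p = 0.00585), where the RTEL1 CA libraries are paired and the Rtel1 F/F +Cre and +GFP libraries are not. In edgeR it changed no other member's call, apart from that of Tinf2 given above for libraries that are paired. Depth limits Tert, at 115 to 228 counts a library, and Terf1 after its deletion.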
